A study of Mus musculus with 8 samples.

Results

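The genes described here are 38 mouse genes of the lysosome: soluble hydrolases, proteins of the lysosomal membrane, factors that deliver enzymes to it, and the transcription factor genes Tfeb and Tfe3. They were taken by name from a set list, and all 38 had a row among the 21859 Ensembl gene IDs of the count table. The cells were PER-M60, a leukaemia line of the mouse, and RNA was sequenced from 8 cultures. Control medium was used for 4 of them. The other 4 received osteoclast-conditioned medium, which had first been on osteoclasts, the bone-resorbing cells. The labels give no genotype, culture time or medium composition, and both groups share the one line. The samples are described as separate cultures, but not whether they came from separate passages or days, so p-values measure only the spread between these cultures.

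Lysosomes are acidic compartments in which proteins, glycans, glycosaminoglycans and lipids are taken apart. Most of their soluble enzymes are tagged with mannose 6-phosphate in the Golgi, carried by receptors to endosomes, and released as the pH falls. TFEB and TFE3, members of the MiT/TFE family of transcription factors, enter the nucleus when the nutrient-sensing kinase mTORC1 is less active and bind E-box motifs before many lysosomal genes, the CLEAR network. In leukaemia and lymphoid cells the lysosome is known as the end station of autophagy and of endocytosed material. In osteoclasts related enzymes are secreted onto bone.

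Because those factors are known to bind E-boxes, the 250 bases before the start of each gene were searched in RefSeq sequences (GRCm38.p6) for CACGTG, and for TCACGTGA, which contains it. Both motifs read the same on either strand. A sequence was found for 35 of the 38 genes, and the 3 without one are Asah1, Ctsb and Npc1. CACGTG occurred in 12 of the 35 (34.3%), against 1854 of 27025 genes of the sequence table (6.86%) and 869 of the 8543 tested genes that had a sequence (10.2%). TCACGTGA occurred in 5 of the 35 (14.3%), against 0.907% of all genes and 1.92% of the tested genes. The windows that follow cover the 5 genes with TCACGTGA and, of the 7 that hold only the shorter motif, Lamp1 and Gaa, picked because they were the ones called higher in osteoclast-conditioned medium. Each is written 5′ to 3′ on the gene's own strand, with CACGTG in capitals. Position -1 is the base before the RefSeq start. The 30-base windows overlap an annotated exon of GENCODE, and the longer windows of Lamp1 and Gaa do not.
Lamp1, chr8:13159081-13159160, plus strand, positions -80 to -1: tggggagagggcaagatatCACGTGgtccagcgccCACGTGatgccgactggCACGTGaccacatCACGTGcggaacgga
Gaa, chr11:119267796-119267855, plus strand, positions -167 to -108: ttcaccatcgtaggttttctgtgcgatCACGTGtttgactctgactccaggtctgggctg
Ctsd, chr7:142387908-142387937, minus strand, positions -110 to -81: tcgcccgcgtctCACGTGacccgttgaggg
Ctsa, chr2:164833743-164833772, plus strand, positions -30 to -1: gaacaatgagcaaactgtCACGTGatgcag
Gla, chrX:134601182-134601211, minus strand, positions -206 to -177: tgagatctcggtCACGTGagcaactctcgg
Mcoln1, chr8:3500462-3500491, plus strand, positions -57 to -28: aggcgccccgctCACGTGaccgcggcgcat
Cln3, chr7:126583340-126583369, minus strand, positions -133 to -104: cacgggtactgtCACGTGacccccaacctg
Lamp1 carried 4 copies of the core within 80 bases. A second core outside the printed window began at -245 in Ctsd, -71 in Mcoln1, -149 in Cln3 and -227 in Gla. The one in Gla lies in a second TCACGTGA. Ctsd was also called higher, and Ctsa, Gla, Mcoln1 and Cln3 did not pass the test. Among all the lysosomal genes with a sequence, CACGTG stood before 3 of the 12 that were higher (25.0%) and before 7 of the 20 that did not pass (35.0%), which were Arsa, Glb1, Naglu and the 4 just named. A match of letters is no evidence of binding, and none of these shares was tested.

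Total counts ran from 15391754 to 21637966 per sample, and 3 counts corresponded to 0.138 to 0.194 CPM, a floor that covers counting error only. Levels are given as normalised CPM, which are counts scaled to a common library size and corrected by TMM factors. Differences are log2 fold changes of osteoclast-conditioned over control medium from edgeR's quasi-likelihood test, with Benjamini-Hochberg adjustment over the 10729 genes tested and a threshold of 0.05. The labels name no batch. The labelled cell type was checked against leukocyte and B-lineage markers. All 10 were tested and together summed to 4579 ± 16.7 normalised CPM in control and 4870 ± 20.4 in conditioned medium (SD, n = 4 each), so the libraries carry such transcripts.

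Of the 38 lysosomal genes, 35 passed the filter on low counts. In osteoclast-conditioned medium 13 of them rose (37.1%) and 0 fell, while 22 did not pass the test. Over all tested genes 30.5% were called, 15.7% higher and 14.8% lower. With total counts in place of TMM scaling the lysosomal genes split 11 higher to 1 lower, and all genes 1383 higher to 2012 lower against 1689 to 1584 with TMM. The rises were small. They ran from 1.07-fold to 1.21-fold with a median of 1.16-fold, and the genes that did not pass ran from 0.914 to 1.12-fold. The median log2 fold change was 0.07 over the 35 genes and -0.01 over all tested genes. In 11 of the 35 tested genes the lowest conditioned sample lay above the highest control sample, as it did in 15.2% of all tested genes. Those 11 were all among the 13 that rose, and Ctsz and Arsb were the other two. At an unadjusted p under 0.05, edgeR and limma-voom each placed 2 genes lower (Man2b1 and Neu1) and DESeq2 placed 1 lower (Man2b1), and after adjustment each of these tools placed 0 lower.

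**Figure D1:**
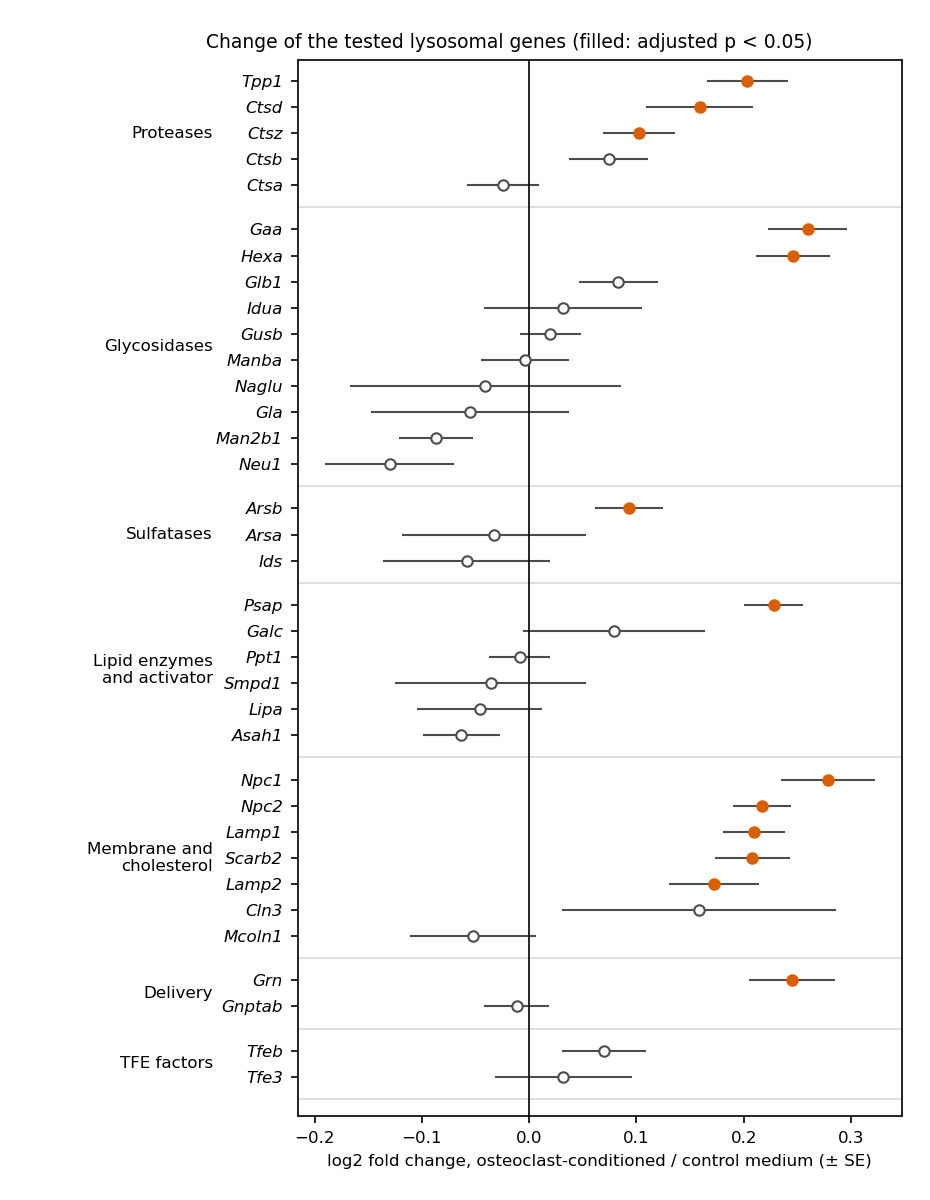
Log2 fold change of the 35 tested lysosomal genes, osteoclast-conditioned over control medium, by class, with bars of 1 standard error and filled points for adjusted p under 0.05. The 13 filled points lie between 0.09 and 0.28, and 5 of them belong to the membrane and cholesterol class.

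The summed level of all 38 genes was 2814, 2872, 2728 and 2791 normalised CPM in control replicates 1 to 4 and 3039, 3026, 3051 and 3016 in conditioned replicates 1 to 4. The sums did not overlap, and the conditioned mean (3033 ± 15.1) was 8.27% above the control mean (2801 ± 59.8; SD, n = 4 each). As a share of all counts the genes took 0.282% ± 0.00607 in control and 0.301% ± 0.00124 in conditioned medium. In a bulk sample, more of a transcript in every cell and a larger share of cells that carry it cannot be told apart.

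Among the proteases, Ctsd, Ctsz and Tpp1 rose, and Ctsa and Ctsb did not pass the test. Tpp1, which removes tripeptides from the ends of proteins, read 59.1, 55.3, 56.3 and 56.4 normalised CPM in control medium and 66.0, 63.7, 64.8 and 66.8 in conditioned medium. Every conditioned sample lay above every control sample (log2 fold change 0.20, SE 0.04, adjusted p = 0.000112). Ctsd, the aspartic protease cathepsin D, read 30.03, 30.6, 29.7 and 27.7 in control and 33.5, 31.6, 33.5 and 33.2 in conditioned medium. Its groups did not overlap either (log2 fold change 0.16, SE 0.05, adjusted p = 0.0149), but without control replicate 4, the lowest, the adjusted p was 0.0603. Of its exon bases, 34.4% coincide with exons of Gm49369 on the same strand, so its count is uncertain.

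Ctsz, a cysteine carboxypeptidase, rose from 125 ± 4.09 to 135 ± 5.42 normalised CPM (SD, n = 4 each), with groups that overlapped. Its samples read 124, 126, 120.2 and 130.0 in control and 139.8, 127, 135 and 136 in conditioned medium. Conditioned replicate 2 was the low one of its group, inside the control range (log2 fold change 0.10, SE 0.03, adjusted p = 0.0193). The adjusted p was 0.0629 without control replicate 3, 0.0913 without conditioned replicate 1, 0.0520 without conditioned replicate 3 and 0.0644 with total counts alone. Ctsb, a cysteine protease with the highest mean CPM of the class, read 139.9, 139, 122 and 126 in control medium and stayed between 138 and 139 in the 4 conditioned samples. Control replicates 1 and 2 stood at the conditioned level and replicates 3 and 4 below it (log2 fold change 0.07, SE 0.04, adjusted p = 0.13). Without control replicate 1 the adjusted p was 0.0325 and without control replicate 2 it was 0.0259. Ctsa, a carboxypeptidase that also protects β-galactosidase and the sialidase Neu1, ranged from 77.4 to 79.9 in control and from 76.2 to 78.6 in conditioned medium (log2 fold change -0.02, adjusted p = 0.621).

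Of the 10 glycosidases, Gaa and Hexa rose (20.0%, near the 15.7% of all tested genes) and the other 8 did not pass the test. Gaa (ENSMUSG00000025579, chromosome 11, 119267887 to 119285454, plus strand), which degrades glycogen, read 59.6, 61.2, 59.0 and 58.0 in control and 72.0, 70.8, 72.7 and 69.3 in conditioned medium. Every conditioned sample was above the control range (log2 fold change 0.26, SE 0.04, adjusted p = 2.26e-06). Hexa, the α subunit of β-hexosaminidase, read 82.0, 82.2, 85.0 and 86.7 in control and 100.2, 102, 100.8 and 94.5 in conditioned medium. Conditioned replicate 4 was the lowest of its group and still above all control samples (log2 fold change 0.25, SE 0.03, adjusted p = 2.22e-06). Of Hexa's exon bases 12.8% coincide with exons of Tmem202 on the opposite strand, and the use of strand in counting is not given in the sources used here.

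Gusb, the β-glucuronidase and the glycosidase with the highest mean CPM, read 196, 199, 186 and 195 in control and 200.3, 197, 194 and 196 in conditioned medium. The groups overlapped (log2 fold change 0.02, SE 0.03, adjusted p = 0.643). Glb1, the β-galactosidase, ranged from 67.0 to 73.6 in control and from 73.2 to 75.1 in conditioned medium (log2 fold change 0.08, adjusted p = 0.0876), and its adjusted p was 0.0162 without control replicate 2. On the negative side stood Man2b1, the lysosomal α-mannosidase, with 84.3, 84.3, 80.1 and 84.5 in control and 76.2, 79.0, 79.5 and 79.3 in conditioned medium. Its groups did not overlap, yet the adjusted p was 0.0542 (log2 fold change -0.09, SE 0.03). It was 0.0292 without control replicate 3, 0.0164 with total counts alone and 0.0309 with upper-quartile factors. Neu1, a sialidase, ranged from 21.9 to 25.1 in control and from 20.1 to 22.1 in conditioned medium (log2 fold change -0.13, adjusted p = 0.105, and 0.0428 without control replicate 2).

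The remaining 4 glycosidases overlapped between media. Manba, the β-mannosidase, lay between 51.1 and 56.6 normalised CPM over the 8 samples, with a log2 fold change of -0.0039 (SE 0.04). Idua, which removes iduronic acid from heparan and dermatan sulfate, lay between 16.5 and 21.1 (log2 fold change 0.03, SE 0.07). Gla, the α-galactosidase, lay between 7.43 and 9.16 (log2 fold change -0.06, SE 0.09). Naglu, an enzyme of heparan sulfate breakdown, had between 73 and 108 counts a sample and the widest error of the class (log2 fold change -0.04, SE 0.13). At this depth log2 differences somewhat larger than that error could also be missed in Naglu.

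Among sulfatases, Arsb rose, Ids and Arsa did not pass the test, and the sulfamidase gene Sgsh was below the filter. Arsb, which acts on dermatan sulfate and had the highest mean CPM of the class, read 186, 206, 185 and 196 in control and 204, 211, 208 and 203 in conditioned medium. Control replicate 2 lay inside the conditioned range (log2 fold change 0.09, SE 0.03, adjusted p = 0.0269). The adjusted p was 0.0916 without control replicate 1, 0.0839 without control replicate 3, 0.0771 without conditioned replicate 2, 0.0753 without conditioned replicate 3 and 0.0789 with total counts alone. Ids, the iduronate sulfatase, read 23.0, 29.6, 22.4 and 22.5 in control and 23.4, 24.0, 24.6 and 22.5 in conditioned medium. Control replicate 2 stood alone above all the others (log2 fold change -0.06, SE 0.08, adjusted p = 0.612). Arsa, which removes sulfate from sulfatide, lay between 9.09 and 11.8 (log2 fold change -0.03, SE 0.09).

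Among the lipid-degrading enzymes and their activator, Psap rose and the other 5 did not pass the test. The share that rose, 16.7%, was near the 15.7% of all tested genes. Psap encodes prosaposin, which is cut into the saposins that present sphingolipids to their hydrolases. It read 380.3, 384, 356 and 370.4 normalised CPM in control and 443, 426, 439 and 438 in conditioned medium. The groups were far apart for their spread (373 ± 12.4 and 437 ± 7.30, SD, n = 4 each; log2 fold change 0.23, SE 0.03, adjusted p = 1.47e-07). Psap (ENSMUSG00000004207, chromosome 10, 60277627 to 60302597, plus strand, GRCm38) overlaps no other listed gene.

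None of the 5 enzymes of this class passed the test. Asah1, the acid ceramidase, read 65.2, 67.7, 65.8 and 67.7 in control and 63.8, 64.7, 62.8 and 64.0 in conditioned medium, groups that did not overlap with an adjusted p of 0.193 (log2 fold change -0.06, SE 0.04). Galc, the galactosylceramidase, lay between 8.47 and 10.3 (log2 fold change 0.08, SE 0.08). Smpd1, the acid sphingomyelinase, lay between 8.46 and 10.5 (log2 fold change -0.04, SE 0.09). Lipa, the acid lipase of cholesteryl esters and triglycerides, lay between 26.5 and 32.4 (log2 fold change -0.05, SE 0.06). Ppt1, which removes palmitate from proteins, lay between 167 and 176 and had one of the smallest errors (log2 fold change -0.01, SE 0.03, adjusted p = 0.846).

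In the membrane and cholesterol export class 5 of the 7 tested genes rose (71.4%), against 15.7% of all tested genes: Npc1, Npc2, Lamp1, Scarb2 and Lamp2. Npc2 binds cholesterol in the lumen and hands it to Npc1 in the membrane. Npc1 read 43.8, 48.5, 44.6 and 47.6 normalised CPM in control and 56.7, 53.6, 55.4 and 58.6 in conditioned medium, and it had the largest log2 fold change of the 35 genes (0.28, SE 0.04, adjusted p = 1.05e-05). Its exons coincide with those of Rmc1 on the opposite strand over 4.52% of their bases. Npc2 read 187, 189, 193 and 193 in control and 225, 219, 222 and 219 in conditioned medium. Npc2 (ENSMUSG00000021242) spans 84754562 to 84773152 of chromosome 12 on the minus strand. No control sample of either gene reached a conditioned one, and Npc2 also had the smallest standard error (log2 fold change 0.22, SE 0.03, adjusted p = 2.97e-07).

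Lamp1 and Lamp2 encode the heavily glycosylated proteins that line the lysosomal membrane, and Lamp2 also acts in chaperone-mediated autophagy. Lamp1, the gene with 4 E-box cores in the window shown above, read 169, 175, 167 and 163 in control and 197, 198, 195 and 191 in conditioned medium (log2 fold change 0.21, SE 0.03, adjusted p = 1.52e-06). Its groups were separate. Lamp1 (ENSMUSG00000031447) spans 13159161 to 13175338 of chromosome 8 on the plus strand, and Grtp1, on the opposite strand, has exons over 9.31% of Lamp1's exon bases. Lamp2 read 81.2, 92.4, 79.95 and 82.2 in control and 94.0, 92.5, 100.4 and 92.5 in conditioned medium. Control replicate 2 stood just under the lowest conditioned sample while the other 3 control samples were well below it (log2 fold change 0.17, SE 0.04, adjusted p = 0.00248).

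Scarb2, the receptor that carries β-glucocerebrosidase to the lysosome, rose from 106 ± 3.36 to 123 ± 5.56 normalised CPM (SD, n = 4 each; log2 fold change 0.21, SE 0.03, adjusted p = 2.79e-05). Its samples read 106, 111, 104 and 104 in control and 118, 129, 127 and 119 in conditioned medium, with no overlap. Mcoln1, a calcium channel of the lysosomal membrane, lay between 22.6 and 25.3 in control and between 20.8 and 23.5 in conditioned medium (log2 fold change -0.05, SE 0.06, adjusted p = 0.535). Cln3, a membrane protein lost in a juvenile form of neuronal ceroid lipofuscinosis, had 71 to 100 counts a sample and a log2 fold change of 0.16 with an SE of 0.13 (adjusted p = 0.372). Its estimate was close to that of Ctsd, and its error was larger (0.13 against 0.05), so a difference of that size was not detectable at this depth.

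**Figure D2:**
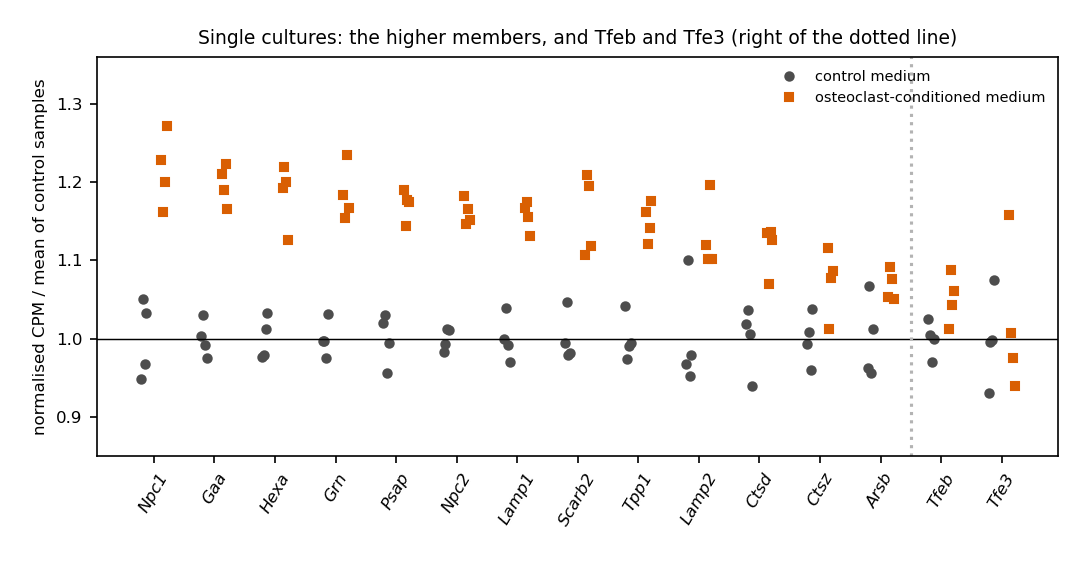
Normalised CPM of each culture divided by the mean of the 4 control cultures, for the 13 lysosomal genes that rose, ordered by log2 fold change, with Tfeb and Tfe3 to the right of the dotted line. Circles are control cultures and squares are osteoclast-conditioned cultures, which separate in 11 of the 13 genes and overlap in Ctsz, Arsb, Tfeb and Tfe3.

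Of the factors that deliver or mature enzymes, Grn rose and Gnptab did not pass the test. Grn (ENSMUSG00000034708, chromosome 11, 102430315 to 102437048, plus strand) encodes progranulin, which travels to the lysosome and is cut into granulins that act on other hydrolases there. It read 47.3, 47.3, 46.3 and 49.0 in control and 56.2, 54.8, 58.6 and 55.4 in conditioned medium, groups that did not overlap (log2 fold change 0.25, SE 0.04, adjusted p = 2.21e-05). Gnptab, a subunit gene of the phosphotransferase that starts the mannose 6-phosphate tag, read 149, 147, 139 and 144 in control and 146, 143, 143 and 142 in conditioned medium. These values overlapped (log2 fold change -0.01, SE 0.03, adjusted p = 0.801).

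The transcripts of the TFE regulators did not pass the test in either gene. Tfeb (ENSMUSG00000023990, chromosome 17, 47737030 to 47792419, plus strand) read 56.5, 55.4, 53.5 and 55.1 normalised CPM in control and 55.8, 59.9, 57.5 and 58.5 in conditioned medium. The highest control sample lay above the lowest conditioned one (log2 fold change 0.07, SE 0.04, adjusted p = 0.186). Tfe3 (ENSMUSG00000000134, chromosome X, 7762560 to 7775202, plus strand) read 21.8, 23.3, 23.4 and 25.2 in control and 27.1, 23.6, 22.8 and 22 in conditioned medium. Conditioned replicate 1 was the highest and the rest were mixed (log2 fold change 0.03, SE 0.06, adjusted p = 0.747). Both factors are known to be controlled mainly by phosphorylation and movement into the nucleus, which RNA counts do not measure.

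For levels between genes, normalised CPM was divided by the length of all annotated exons of the gene. On this scale Psap was the highest of the tested genes in control medium, with 136 normalised CPM per kb. It was followed by Ctsz with 86.9 and Lamp1 with 63.0. Galc with 0.603 and Cln3 with 0.779 were the lowest, and Tfeb (9.72) stood above Tfe3 (2.53). These ranks depend on the annotated length. Galc has 14879 annotated exon bases, and its undivided control mean of 8.97 normalised CPM lay above the 4.50 of Cln3.

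Summed by class, the membrane and cholesterol genes stood at 624 ± 13.3 normalised CPM in control and 718 ± 7.71 in conditioned medium (15.2% higher). The lipid class stood at 658 ± 14.9 and 718 ± 7.07 (9.05% higher). Psap alone went from 373 to 437, a larger rise than that of the class sum. Of the 6 genes of the class, 4 had a negative log2 fold change. Proteases came to 422 ± 12.0 and 449 ± 6.25 (6.42% higher), glycosidases to 599 ± 11.0 and 627 ± 5.11 (4.56% higher), and sulfatases to 228 ± 13 and 241 ± 3.95 (5.35% higher; all SD, n = 4 each). The delivery factors summed to 192 ± 4.72 and 199.9 ± 2.35 (3.98% higher), and Tfeb with Tfe3 to 78.5 ± 1.42 and 81.8 ± 1.66 (4.17% higher). Of the 7 classes, the sulfatases were the one whose sums overlapped between media. That overlap came from control replicate 2 (247, against 218 to 227 in the other control samples), and without it the mean sums differed by 18.4 normalised CPM in place of 12.2. In the sulfatases Arsb alone went from 193 to 206. The sums of Tfeb with Tfe3 nearly touched, with 80.30 as the highest in control and 80.32 as the lowest in conditioned medium. Taken singly, Tfeb and Tfe3 each overlapped between media. The classes were not tested against each other.

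**Figure D3:**
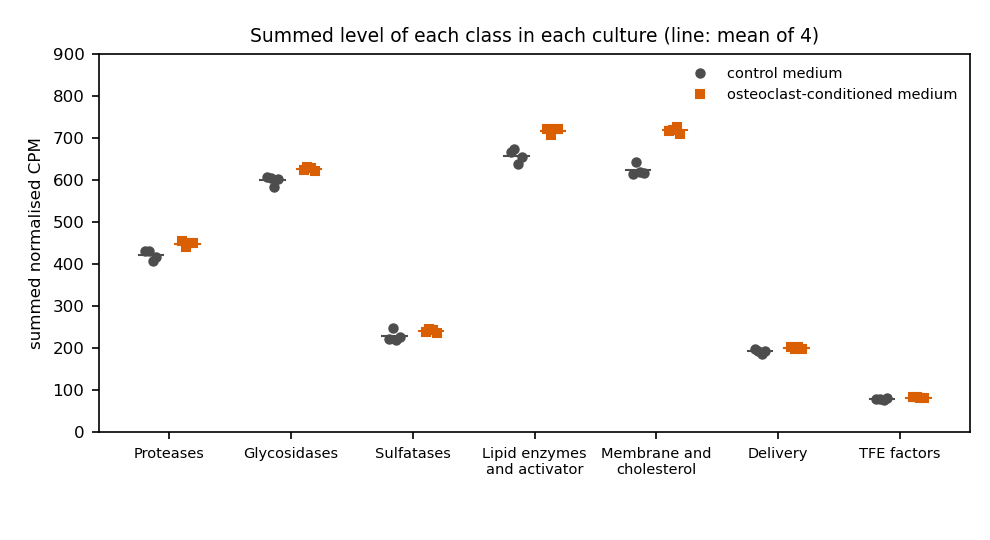
Summed normalised CPM of each class of lysosomal genes in each culture, with circles for control medium, squares for osteoclast-conditioned medium and a line at the mean of 4. The membrane and cholesterol sums lie between 614 and 643 in control and between 709 and 727 in conditioned cultures.

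The 3 lysosomal genes below the filter were Ctsl, Sgsh and Cd63. Ctsl, the cysteine protease cathepsin L, had 0 counts in all 8 samples, which allows up to 0.138 to 0.194 CPM in a sample. Cd63, a tetraspanin of late endosomes, had 2 counts over the 8 samples, and Sgsh, the heparan sulfamidase, had 14, with 0 to 3 a sample. The annotation places an antisense gene and a processed pseudogene over Ctsl, and Card14 on the opposite strand over Sgsh. It places no gene over Cd63. Why these rows were empty or nearly so was not tested, and they are not read as absence of the transcripts.

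The exons of 12 of the 35 tested genes coincide in part with exons of another gene of the table. Among the 23 that coincide with none, 7 rose, against 15.7% of all tested genes.

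A further 86 genes of the lysosomal system, chosen by role, were read from the same fit. Of the 79 tested, 19 rose (24.1%) and 2 fell (2.53%), against 15.7% and 14.8% of all tested genes, with a median log2 fold change of 0.03. Both that fell belong to the sorting genes. Among other hydrolases 8 of 28 rose (28.6%). Lgmn, which encodes the asparaginyl endopeptidase that matures cathepsins, rose from 61.3 ± 2.12 normalised CPM to 86.4 ± 2.24 (SD, n = 4). That was a log2 fold change of 0.50 (SE 0.04, adjusted p = 9.83e-12), above those of all 35 genes of the main list. Scpep1, a serine carboxypeptidase, rose from 18.2 ± 1.46 to 25.3 ± 1.07 (log2 fold change 0.47, adjusted p = 7.14e-07). Dnase2a, the acid DNase, rose from 3.91 ± 0.235 to 5.06 ± 0.429 (log2 fold change 0.38, adjusted p = 0.0145), and part of it lies within Mast1 on the opposite strand. None of the 3 overlapped between groups.

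Subunits of the V-ATPase, the pump that acidifies the lysosome, rose in 3 of 16 cases (18.8%), a share near the 15.7% of all tested genes. Atp6v0a1, a membrane subunit, rose from 12.4 ± 0.844 to 16.9 ± 0.871 normalised CPM (log2 fold change 0.45, adjusted p = 1.12e-05). Atp6ap2, an accessory subunit, rose from 51.9 ± 3.90 to 62.1 ± 0.495 (log2 fold change 0.25, adjusted p = 5.06e-05). Atp6v1d, of the cytosolic part, had a log2 fold change of 0.17 (adjusted p = 0.0018). The remaining 13 did not pass the test. Other membrane proteins and transporters rose in 3 of 18 cases (16.7%), again near the share of all tested genes: Lmbrd1 of cobalamin export (0.17, adjusted p = 0.0367), Ostm1, the partner of a chloride transporter (0.15, adjusted p = 0.0104), and the cation channel gene Tpcn1 (0.14, adjusted p = 0.000165), all given as log2 fold changes.

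The genes of mannose 6-phosphate tagging and sorting had 2 of 10 higher (20.0%) and 2 lower (20.0%), shares near the 15.7% and 14.8% of all tested genes. Igf2r, the large mannose 6-phosphate receptor, rose from 131 ± 4.40 normalised CPM to 161 ± 6.25 (SD, n = 4; log2 fold change 0.30, SE 0.03, adjusted p = 2.97e-08). M6pr, the small receptor, fell from 147 ± 3.52 to 136 ± 4.67 (log2 fold change -0.11, SE 0.03, adjusted p = 0.00668). The adaptors at the Golgi split as well. Gga1 rose (log2 fold change 0.15, adjusted p = 0.002), and Gga3 fell from 59.2 ± 2.47 to 51.0 ± 2.04 (log2 fold change -0.21, adjusted p = 0.000225). M6pr was named after its values were seen, as the pair of Igf2r. Of the genes that control TFE factors, 3 of the 7 tested rose (42.9%), against 15.7% of all tested genes. They were Fnip1 (log2 fold change 0.21, adjusted p = 0.00052) and Flcn (0.11, adjusted p = 0.0299), whose products act together on RagC/D in mTORC1 signalling, and Ppp3ca (0.19, adjusted p = 2.43e-05), a catalytic subunit of calcineurin, which removes phosphate from TFEB. Mitf, Tfec and Fnip2 were below the filter and not tested. Mitf had 5, 6, 3 and 5 counts in control and 8, 7, 14 and 15 in conditioned medium. Tfec had 0 in all samples, and Fnip2 had 2 to 13 a sample with groups that overlapped.

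**Figure D4:**
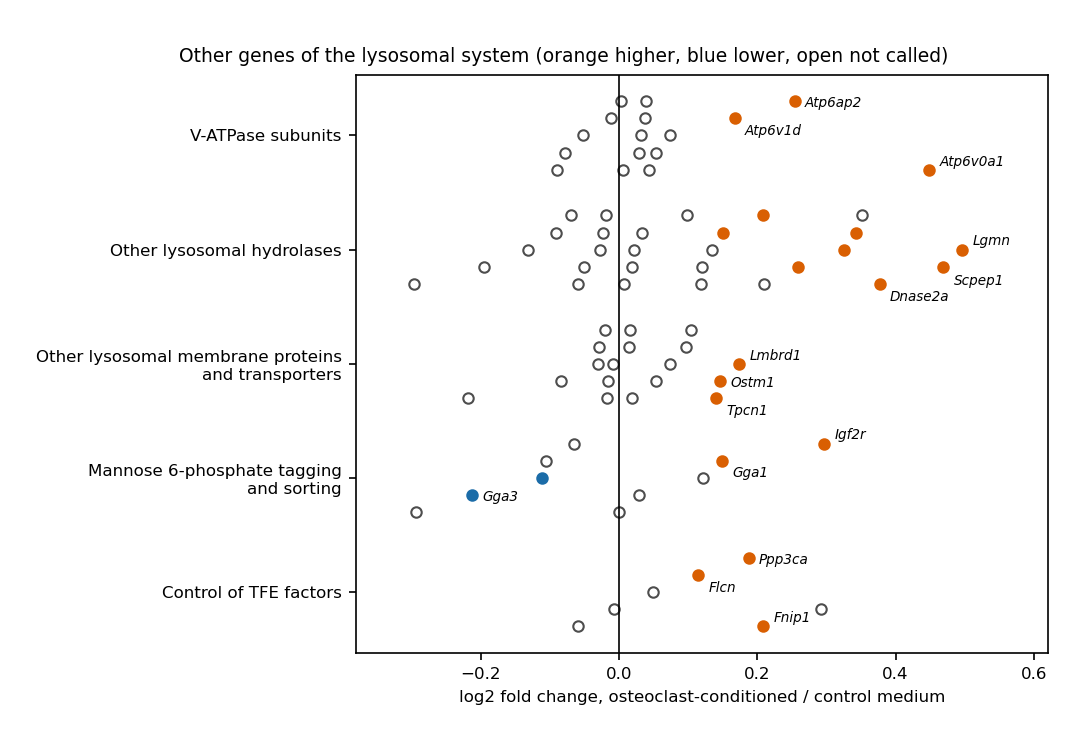
Log2 fold change, osteoclast-conditioned over control medium, of the 79 tested related lysosomal genes in 5 groups by role, in orange where higher, blue where lower and open where the test was not passed. Up to 3 genes a group are named; Lgmn has the largest value at 0.50, and the 2 blue points, Gga3 and M6pr, lie in the sorting group.

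Osteoclasts and macrophages are rich in lysosomal transcripts, so their markers are given beside these results. Of 13 osteoclast markers 8 were below the filter with at most 14 counts in a sample, and Ocstamp and Dcstamp were at 0 in all 8. Ctsk, the osteoclast cathepsin, had 0 to 5 counts a sample. The summed level of the 13 was 410.0 to 435 normalised CPM in control and 396 to 402 in conditioned medium. Car2 (223), Nfatc1 (95.6) and Tcirg1 (67.85) had the largest control means in it, so the sum does not track the 8 markers below the filter. Of the 5 tested, Nfatc1 rose (log2 fold change 0.15) and Itgb3 (-0.25) and Car2 (-0.14) fell. Of 12 macrophage markers 9 were below the filter with at most 6 counts a sample, and Itgam, Cd14, C1qa, C1qb and Marco were among those at 0. The 12 summed to 20.8 to 22.2 normalised CPM in control and 21.5 to 25.2 in conditioned medium, and Lyz2, which encodes lysozyme, rose from 4.46 ± 0.406 to 5.91 ± 0.865 normalised CPM (SD, n = 4 each; adjusted p = 0.0119). Of the 10 leukocyte and B-lineage markers, 6 rose. The part of any of these in the lysosomal results was not tested.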

How the data were processed

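Whole-number counts per Ensembl gene ID were deposited by the authors as 1 table for the 8 samples, with no normalisation. Per the submitters' processing notes, STAR 2.7.5a, featureCounts 2.0.1 and build mm10 were used; their roles and settings, including strand and molecular barcodes, are not given in the sources used here. Per the labels' protocols, total RNA was taken with a column kit and libraries were made with SureSelect HS2. Columns were matched by the sample number in their header (0 unmatched), and groups came from the sample titles. Symbols, positions and exon overlaps came from GENCODE M21 on GRCm38 (21817 IDs matched, 42 did not).

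Genes passing filterByExpr (10729) were scaled by TMM and tested with edgeR 4.0.16 in R 4.3.3 (glmQLFit robust, glmQLFTest, medium as the one term), with Benjamini-Hochberg adjustment over all of them at a threshold of 0.05. The script was tested on simulated data. Standard errors were the absolute log2 fold change divided by the square root of F. Total counts of 15391754 to 21637966 and a common biological coefficient of variation of 0.0304 set the precision. Counts of sample pairs differed by more than sampling noise, so each sample was kept. Alternatives were DESeq2 size factors, total counts alone, upper-quartile factors, no filter, a mean of at least 50 counts, the Wald test of DESeq2 1.42.0, limma-voom (limma 3.58.1), adjusted p under 0.01, the replicate block and leaving out each sample. Counting only genes with no exon overlap was chosen after seeing the data. Figures used Python 3.11.15, pandas 2.3.3 and matplotlib 3.10.9.

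Values per sample were given for up to 3 called genes of a class with the largest absolute log2 fold change, the gene with the highest mean CPM, Tfeb and Tfe3, and for further genes chosen after their values were seen. In each related list up to 3 called genes were named by the same measure. Genes and lists were chosen with earlier results of these data known.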

Additional observations from a re-analysis of the deposited data

Results flagged for a closer look

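Over 86 groups of 4 samples (each tested gene, each class sum and the sum of all 38 genes, per medium), 6 held a sample whose gap to the nearest of the others, divided by the range of the group, was above Dixon's 95% critical value. Chance gives about 4.3 such groups. Ctsd had a low conditioned replicate 2, at 31.6 normalised CPM against 33.2 to 33.5 in the other 3 (gap ratio 0.844). Man2b1 had a low control replicate 3, at 80.1 against 84.3 to 84.5 (0.965), and a low conditioned replicate 1, at 76.2 against 79.0 to 79.5 (0.855). Ids had a high control replicate 2, at 29.6 against 22.4 to 23.0 (0.92). The summed lipid class had a low conditioned replicate 2, at 707 against 721 in each of the others (0.952). The summed membrane and cholesterol class had a high control replicate 2, at 643 against 614 to 619 (0.844).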

How the results depend on the processing

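Of the 13 genes that rose, 10 passed the threshold under all 17 alternatives run for each gene, and 0 changed sign. The other 3 were Ctsd, Ctsz and Arsb. At an adjusted p under 0.01, 10 of the 13 passed, and 1199 of all tested genes were higher and 948 lower. Total counts alone gave 1 lower lysosomal gene (Man2b1) and 4 lower related genes, and upper-quartile factors gave 1 lower lysosomal gene. Genes with no exon overlap gave 7 higher of 23, against 13 of all 35 tested lysosomal genes. The causes of these differences were not tested. Leaving out 1 sample gave 11 to 15 higher and 0 to 1 lower lysosomal genes, with 1 lower without control replicate 2 (Neu1) and without control replicate 3 (Man2b1), and 17 to 21 higher and 2 to 4 lower related genes, with 4 lower without control replicate 2. The Wald test of DESeq2 gave 15 higher related genes. Same-numbered samples had correlations of deviations of -0.0289, 0.0858, -0.0507 and 0.143, so the numbers were not taken as pairs. The replicate block gave 13 higher and 0 lower lysosomal genes, 19 higher and 3 lower related genes, and 1759 higher and 1687 lower of all genes. Between groups the mean summed level of all 38 genes differed by 207 to 255 normalised CPM when 1 sample was left out.

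Of the 22 genes that did not pass, 11 changed sign in at least 1 alternative. Gusb read -0.0018 on the log2 scale with total counts alone. With 1 sample left out, log2 fold changes ran for Manba from -0.021 to 0.028, for Naglu from -0.13 to 0.068, for Idua from -0.021 to 0.093, for Ids from -0.095 to 0.062 and for Arsa from -0.096 to 0.026. They ran for Smpd1 from -0.069 to 0.048, for Lipa from -0.076 to 0.021, for Ppt1 from -0.021 to 0.0046, for Gnptab from -0.027 to 0.0068 and for Tfe3 from -0.036 to 0.072. Depth limits Cln3, Naglu, Gla, Smpd1, Galc and Arsa most, with under 250 counts a sample and standard errors of 0.08 to 0.13.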
